A study of Mus musculus with 50 samples.

Results

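The comparison described here set thyroids of male C57BL/6 mice given antibodies against 3 Notch receptors beside thyroids of mice given antibodies against 2 Notch ligands, both taken 7 days later. The receptor group (aN1aN2aN3) received antibodies against Notch1, Notch2 and Notch3 at 5, 10 and 20 mg/kg, and the ligand group (aJ1aJ2) received antibodies against Jag1 and Jag2 at 20 mg/kg each. Each was given once, into the peritoneum. The members are the 10 libraries that the sample titles and their identifiers place in this set, 5 per group, out of 50 in the series. No library of the isotype control, an anti-ragweed antibody (RW), belongs to the set, so every difference below is aN1aN2aN3 relative to aJ1aJ2 and none is relative to an untreated or control thyroid. The sample labels give an age of 10 to 14 weeks and the series text 10 to 12 weeks. That text also mentions daily thyroid hormone injections in part of the study without saying which mice received them. The labels do not say whether 1 library is 1 mouse, so p-values measure only the spread between these libraries.

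Notch receptors are cut after they bind a Jagged or Delta-like ligand on a neighbouring cell, and the freed intracellular part switches on genes of the Hes and Hey families together with RBPJ. The thyroid stores hormone as thyroglobulin inside follicles, whose epithelial cells take up iodide and couple it to thyroglobulin. C cells between the follicles make calcitonin, and the follicles are wrapped in a dense capillary net with pericytes. A dissected mouse thyroid lies against brown and white fat, skeletal muscle, the trachea and the parathyroid glands, and RNA of those tissues can be counted with it. In such bulk libraries, fewer cells of a type and less RNA per cell cannot be told apart.

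Total counts lay between 15.3 and 23.6 M per library, with means of 17.8 ± 2.06 M in aJ1aJ2 and 21.9 ± 1.86 M in aN1aN2aN3 (SD, n = 5 each, exact permutation p = 0.0238, two-sided). Gene levels below are CPM values computed with TMM-scaled library sizes, always in the order of replicates 1 to 5. Markers of the thyroid were present in all 10 libraries, but Tg, the gene of thyroglobulin, took only 1.15 to 6.50% of counts, against a median of 30.2% (0.450 to 42.4%) in the other 40 libraries of the series. Skeletal muscle genes took from 0.0626 to 17.9% of counts in aJ1aJ2, highest in replicates 4 (17.9%) and 5 (6.36%), and from 0.976 to 4.99% in aN1aN2aN3. Those 2 aJ1aJ2 libraries stood apart: over all genes tested their log CPM correlated at 0.871 to 0.928 with aJ1aJ2 replicates 1 to 3, which correlated at 0.961 to 0.981 with each other. Parathyroid genes took 0.0119% of counts in aJ1aJ2 replicate 3 and up to 7.71% in the other aJ1aJ2 libraries, against 1.07 to 4.39% in aN1aN2aN3. Genes of brown and general adipocytes together took 0.800 to 1.04% in aJ1aJ2 and 0.188 to 0.457% in aN1aN2aN3, without overlap, so a difference between the treatments and a difference in the amount of fat in the sample cannot be told apart here.

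**Figure D1:**
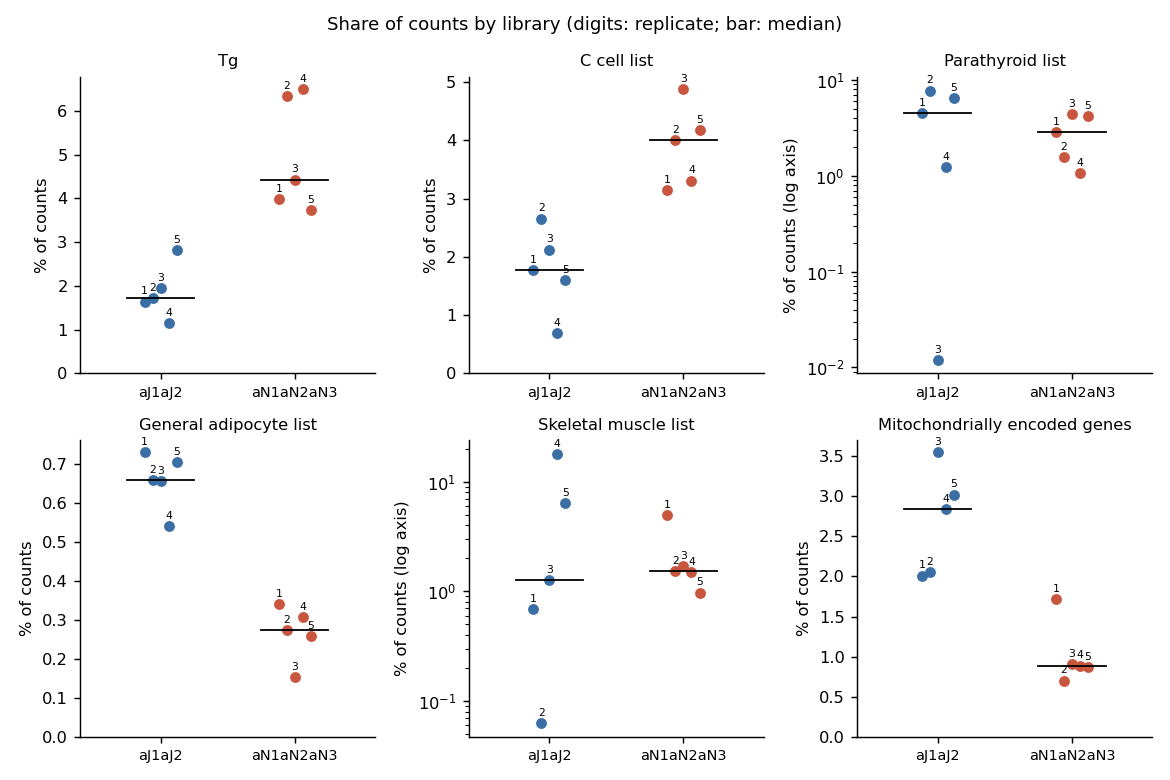
Percent of all counts taken in each library by Tg and by the summed genes of 5 lists, in the 5 aJ1aJ2 (blue) and 5 aN1aN2aN3 (red) libraries. Points are libraries with their replicate number, bars are medians, and the parathyroid and muscle panels have log axes. The Tg, C cell and adipocyte shares do not overlap between the groups, whereas the muscle and parathyroid shares do.

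A large part of the measured transcriptome differed between the groups. Of 18450 genes tested, 3614 (19.6%) passed an adjusted p of 0.05 in edgeR's quasi-likelihood test with Benjamini-Hochberg adjustment, 1696 higher (9.19%) and 1918 lower (10.4%) in aN1aN2aN3. The change was at least 2-fold for 813 of the higher and 1126 of the lower genes. The 5 libraries of one group all lay above the 5 of the other for 2764 genes (15.0%), 1446 of them higher (7.84%) and 1318 lower (7.14%) in aN1aN2aN3. Log2 fold changes (log2FC) are given ± SE. The median of all genes tested was -0.07. With library totals in place of TMM scaling this median moved to 0.04 and the share of higher genes among those called from 46.9 to 60.2% (1815 higher, 1198 lower). The count fell to 2298, 2042 and 2263 genes without aN1aN2aN3 replicates 2, 3 and 5, and rose to 6824 of 19222 tested (3790 higher, 3034 lower) when aJ1aJ2 replicates 4 and 5 were both left out. Counts of list members in that last fit are to be read beside its larger total. With the summed adipocyte share of each library as a covariate 0 genes passed in edgeR (1021 at an unadjusted p under 0.05). Of the variance of that share, 83.9% lay between the groups. In that fit the median log2 fold change turned from below to above 0 for the lists of brown adipocytes (0.66), fibroblasts (0.13), collagens (0.83), collagen folding (0.49), pericytes (0.06), smooth muscle (0.88), macrophages (0.36), the citric acid cycle (0.34), fatty acid oxidation (0.44), glycolysis (1.15), the integrated stress response (0.68), antioxidants (0.07), MHC class I (0.17) and II (0.59), and hormone production (0.45) and metabolism (1.01). It did so also for skeletal muscle (2.40), liver (1.30), B cells (0.97), thymocytes (0.36), Schwann cells (0.18), the Notch readouts (0.10) and thyroglobulin uptake (0.05). For the parathyroid list it turned from above to below 0 (-0.83). Among lists that kept their sign, it moved toward 0 for complex I (-0.97 to -0.15), complexes II to V (-0.95 to -0.13) and mitochondrially encoded genes (-1.67 to -0.22). So it did for mitochondrial ribosomal proteins (-0.51 to -0.25), lipogenesis (-1.06 to -0.12) and general adipocytes (-1.60 to -0.09). For endoplasmic reticulum chaperones it went from -0.81 to -1.22, and for the glucocorticoid list from 1.37 to 1.17.

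The genes with the largest changes were picked among called genes with at least 5 mean CPM in the group with the higher level and groups that did not overlap. Their lack of overlap thus follows from the choice. The largest increases among them were led by Adamts4, a protease that cleaves the cartilage and matrix proteoglycan aggrecan. Adamts4 read 0.543, 0.249, 0.367, 0.286 and 0.269 CPM in aJ1aJ2 and 1.09, 5.66, 11.8, 1.20 and 18.2 CPM in aN1aN2aN3. Every aN1aN2aN3 library was above every aJ1aJ2 library, although 2 of the former were close to 1 CPM (log2FC 4.41 ± 0.83, edgeR adjusted p = 0.00581). Fgfbp1, a secreted protein that releases fibroblast growth factors from the matrix, read 12.4, 10.5, 15.9, 10.6 and 6.06 CPM in aJ1aJ2 and 100.5, 215, 343, 201 and 253 CPM in aN1aN2aN3. The lowest aN1aN2aN3 library was several times the highest aJ1aJ2 library (log2FC 4.32 ± 0.35, edgeR adjusted p = 0.000310). Kcnt1, a sodium-activated potassium channel, read 1.54, 1.99, 1.10, 0.716 and 0.538 CPM in aJ1aJ2 and 5.51, 19.6, 25.5, 11.2 and 25.5 CPM in aN1aN2aN3, again without overlap (log2FC 3.87 ± 0.49, edgeR adjusted p = 0.00104). Hif3a, a member of the hypoxia-inducible factor family that glucocorticoids also induce, read 1.68, 3.92, 0.995, 1.504 and 2.22 CPM in aJ1aJ2 and 15.3, 23.4, 25.8, 22.7 and 33.1 CPM in aN1aN2aN3. All 5 aN1aN2aN3 libraries were high and close together (log2FC 3.54 ± 0.36, edgeR adjusted p = 0.000461). Depp1, a FOXO target, rose from 12.2–56.01 to 125–369.8 CPM (log2FC 3.23 ± 0.47, edgeR adjusted p = 0.00217). Cbs, the first enzyme of transsulfuration, rose from 0.269–1.72 to 1.79–15.5 CPM (3.20 on the log2 scale). Apoc3, an inhibitor of lipoprotein lipase, rose by 3.23, Serpina3i, a member of a family of near-identical serpins, by 2.88, and the matrix protease Adamts15 by 2.84 on the log2 scale, all 3 without overlap. Serpina3i kept its call in 5 of 10 fits that each left out 1 library (highest adjusted p 0.0693), and the other 8 genes described here in all 10.

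Among called genes picked in the same way, also for groups that did not overlap, the 10 largest decreases included several genes of fat cells and of fat storage. Adrb3, the adrenergic receptor of adipocytes, read 16.5, 19.5, 15.7, 47.4 and 20.5 CPM in aJ1aJ2 and 1.05, 0.598, 0.885, 1.49 and 1.61 CPM in aN1aN2aN3. The lowest aJ1aJ2 library was far above the highest aN1aN2aN3 library (log2FC -4.40 ± 0.40, edgeR adjusted p = 0.000310). Scd1, which makes monounsaturated fatty acids, read 1453, 2817, 858, 2435 and 3181 CPM in aJ1aJ2 and 303, 162, 82.1, 133 and 157 CPM in aN1aN2aN3, again without overlap (log2FC -3.68 ± 0.44, edgeR adjusted p = 0.000759). Pnpla3, a lipid droplet protein induced by feeding, read 55.01, 79.5, 57.5, 104 and 79.1 CPM in aJ1aJ2 and 7.00, 9.53, 2.49, 3.13 and 3.13 CPM in aN1aN2aN3. The groups lay far apart here too (log2FC -3.89 ± 0.40, edgeR adjusted p = 0.000493). Otop1, a proton channel of brown fat, fell from 8.85–26.6 to 0.211–3.87 CPM (log2FC -3.99 ± 0.75, edgeR adjusted p = 0.00647). Orm1, an acute phase protein of liver and fat with near-identical copies, fell by 4.00 on the log2 scale, from 17.4–31.7 to 0.253–3.50 CPM. Rbp7, a retinol-binding protein of fat endothelium, fell from 12.03–38.2 to 0.635–3.85 CPM and Ptger3, a prostaglandin E2 receptor, from 13.9–34.9 to 0.253–2.75 CPM. Angptl8, a feeding-induced inhibitor of lipoprotein lipase, and Paqr9, a membrane receptor of the progestin and adipoQ family, fell by 3.51 and 3.50 on the log2 scale. Nppc, the gene of C-type natriuretic peptide, fell from 3.87–17.4 to 0.440–2.67 CPM. Angptl8 lost its call without aN1aN2aN3 replicate 3 (log2 fold change -3.34, edgeR adjusted p = 0.0551), and the other 9 kept theirs in every fit that left out 1 library. Adamts4, Adrb3 and Pnpla3 share exon sequence with other annotated genes, Pnpla3 with one on its own strand, and whether counting used strand is not given in the sources used here.

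**Figure D2:**
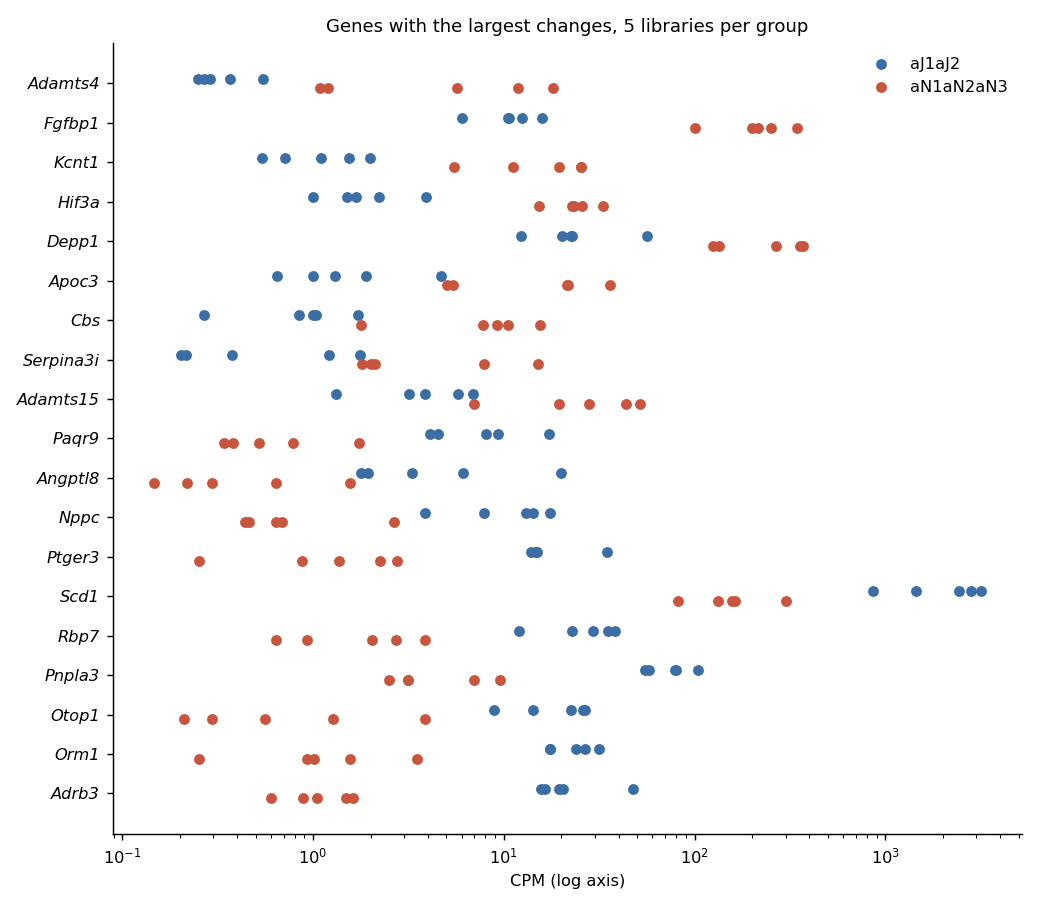
CPM on a log axis of 9 genes from the 10 largest increases (top) and of the 10 largest decreases (bottom) among called genes with at least 5 mean CPM in the higher group and groups that do not overlap. Each point is 1 of 5 aJ1aJ2 (blue) or 5 aN1aN2aN3 (red) libraries. Adrb3 lies at 15.7 to 47.4 CPM in aJ1aJ2 and 0.598 to 1.61 CPM in aN1aN2aN3, and Fgfbp1 at 6.06 to 15.9 and 100.5 to 343 CPM.

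The count of Notch pathway genes called depended on the libraries kept. With all 10 libraries, of 9 receptors and ligands, 1 rose and 0 fell, of 24 genes of receptor processing and transcription 2 rose and 0 fell, and of 7 readouts of Notch signalling tested none was called in edgeR, where 19.6% of all genes were. Without both muscle-rich aJ1aJ2 libraries 6 receptors and ligands and 9 genes of processing and transcription rose (list medians from 0.13 to 1.18 and from 0.06 to 0.31), as did 6 and 10 by limma-voom with quality weights, while fits without 1 library called 0 to 4 in each list, most without aJ1aJ2 replicate 5 and aN1aN2aN3 replicate 1. More genes of every kind were called in the former 2 fits: 3790 of 19222 tested rose without both libraries and 4101 of 18450 by limma-voom. Notch2, a receptor targeted in the aN1aN2aN3 group, read 18.02, 15.8, 13.8, 27.00 and 30.8 CPM in aJ1aJ2 and 28.5, 41.4, 32.7, 46.6 and 48.5 CPM in aN1aN2aN3. Its groups overlapped (log2FC 0.91 ± 0.25, edgeR adjusted p = 0.0252), and the call was kept in 5 of 10 fits without 1 library (highest adjusted p 0.0630). Notch1 read 10.01, 10.2, 9.01, 17.4 and 24.8 CPM in aJ1aJ2 and 16.7, 21.4, 22.5, 29.5 and 34.2 CPM in aN1aN2aN3 (log2FC 0.80 ± 0.31, edgeR adjusted p = 0.0841), and was not called. Notch3, the pericyte receptor and itself a Notch target, read 4.03, 2.87, 2.99, 5.66 and 6.66 CPM in aJ1aJ2 and 3.24, 3.27, 4.59, 4.78 and 4.15 CPM in aN1aN2aN3. Its levels were low in both groups and overlapped (log2FC -0.14 ± 0.28, edgeR adjusted p = 0.741). Ligand transcripts were at 14.04–27.7 CPM in aJ1aJ2 and 10.3–18.4 CPM in aN1aN2aN3 for Jag1 (log2FC -0.39 ± 0.23, edgeR adjusted p = 0.244), and at 3.67–26.8 and 8.13–19.9 CPM for Jag2 (log2FC 0.04 ± 0.52, edgeR adjusted p = 0.968). Antibodies act on the proteins, so these transcript levels do not check whether a receptor or ligand was blocked.

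Among the readouts, the transcription factor Hey1 read 9.46, 9.84, 11.3, 10.03 and 13.7 CPM in aJ1aJ2 and 8.31, 6.49, 2.87, 9.43 and 4.55 CPM in aN1aN2aN3. It was the 1 of 7 readouts tested whose groups did not overlap, where 15.0% of all genes did not. It was lower in all 5 aN1aN2aN3 libraries, but it missed the threshold (log2FC -0.78 ± 0.30, edgeR adjusted p = 0.0821). Hes1 read 52.5, 67.1, 83.7, 28.2 and 118 CPM in aJ1aJ2 and 77.6, 102, 69.7, 67.5 and 94.8 CPM in aN1aN2aN3, with full overlap (log2FC 0.23 ± 0.31, edgeR adjusted p = 0.616). Heyl, the Hey factor of mural cells, was at 11.5–20.4 and 9.68–18.8 CPM (log2FC -0.08 ± 0.22, edgeR adjusted p = 0.834). Log2 fold changes were -0.51 for Hey2, 0.03 for the feedback inhibitor Nrarp and 0.62 for the ubiquitin ligase Dtx1. Of the 7 readouts tested, only Hey1 had an unadjusted p under 0.05 in edgeR, DESeq2 called 0, and limma-voom with quality weights called 3, Hey1 and Hey2 lower and Dtx1 higher. Over all genes limma-voom called 8248 of 18450. Both groups had a Notch pathway antibody, and the shared part of their effects does not appear in this contrast. The called genes of the machinery were Ncstn, the nicastrin subunit of gamma-secretase (0.72 ± 0.23, edgeR adjusted p = 0.0464), and the coactivator Maml3 (0.85 ± 0.25, edgeR adjusted p = 0.0352), and both lost their calls in most fits that left out 1 library (2 and 4 of 10 kept). Rbpj, the DNA-binding factor of the pathway, was at 6.93–11.8 and 8.24–10.4 CPM (log2FC 0.04 ± 0.19, edgeR adjusted p = 0.904). Notch1, Notch2, Notch3, Nrarp and Ncstn share exon sequence with other annotated genes.

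Of 14 genes of thyroid hormone production tested, 1 rose and 1 fell (14.3% called), below the 19.6% over all genes. Leaving out 1 library gave 0 to 2 higher and 1 to 4 lower, and leaving out both muscle-rich aJ1aJ2 libraries 3 and 4. Tg read 14716, 16404, 17757, 16478 and 31334 CPM in aJ1aJ2 and 40538, 60688, 44104, 58804 and 34907 CPM in aN1aN2aN3. Every aN1aN2aN3 library was above every aJ1aJ2 library, the closest being aN1aN2aN3 replicate 5 and aJ1aJ2 replicate 5 (log2FC 1.31 ± 0.31, edgeR adjusted p = 0.0137), and the call was lost without aJ1aJ2 replicate 2 (1.27, edgeR adjusted p = 0.0553). As a share of counts Tg was 1.86 ± 0.612% and 5.00 ± 1.32% (SD, n = 5), a difference with an exact permutation p of 0.00794, the smallest that 5 against 5 libraries can give. Slc5a5, the iodide symporter of the basal membrane, read 113, 72.9, 74.8, 65.96 and 116 CPM in aJ1aJ2 and 26.8, 51.2, 9.99, 21.03 and 8.50 CPM in aN1aN2aN3. All 5 aN1aN2aN3 libraries were below all aJ1aJ2 libraries (log2FC -1.91 ± 0.46, edgeR adjusted p = 0.0165). Pax8, a transcription factor of follicle cells, rose (0.78 ± 0.21, edgeR adjusted p = 0.0222) with overlapping groups, the only one of 4 thyroid transcription factors called, and kept its call in 6 of 10 fits without 1 library.

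Other follicle genes differed one by one. Of 12 epithelial genes tested 3 rose and 0 fell (25% called, against 19.6% over all genes), all 3 of them tight junction genes whose groups did not overlap. The claudin Cldn3 read 166, 219, 219.6, 98.3 and 249.6 CPM in aJ1aJ2 and 334, 564, 436, 439 and 472 CPM in aN1aN2aN3 (log2FC 1.24 ± 0.25, edgeR adjusted p = 0.00670). Tjp3, the scaffold ZO-3, rose from 30.5–46.4 to 57.7–84.2 CPM (log2FC 1.05 ± 0.17, edgeR adjusted p = 0.00282), and Cldn4 from 8.81–26.04 to 27.9–39.5 CPM (log2FC 0.80 ± 0.25, edgeR adjusted p = 0.0444, kept in 3 of 10 fits without 1 library). The adhesion genes Epcam and Cdh16 were not called (0.51 and 0.48). In the list of thyroglobulin uptake and proteolysis, with 14 genes tested and 14.3% called (19.6% over all genes), the lysosomal protease Ctsl rose from 544–1226 to 1865–2744 CPM (log2FC 1.24 ± 0.26, edgeR adjusted p = 0.00812), and the asialoglycoprotein receptor Asgr1 fell from 141–424 to 29.8–88.8 CPM (log2FC -2.17 ± 0.38, edgeR adjusted p = 0.00386). Cathepsin B (Ctsb, -0.04) and the endocytic receptor Lrp2 (0.79) were not called. Among 12 genes of hormone metabolism, transport and reception tested 1 rose and 2 fell (25% called, against 19.6% over all genes). Without both muscle-rich aJ1aJ2 libraries 5 rose and 2 fell, and the median turned from -0.41 to 0.33. Crym, which binds T3 in the cytosol, fell by 2.82 and Dio2, the activating deiodinase, by 1.90, whereas the amino acid and hormone transporter Slc7a8 rose by 1.49 on the log2 scale. Dio2 kept its call in 4 of 10 fits without 1 library and is also a brown fat gene. Dio1 (-1.11) and the hormone receptor Thrb (-0.38) were not called. Tg, Pax8, Cldn3, Tjp3, Ctsl, Ctsb and Dio2 share exon sequence with other annotated genes.

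Several neuroendocrine genes of the C cells were higher in aN1aN2aN3. Of 12 tested, 4 rose and 0 fell, with a list median of 0.71 against -0.07 for all genes. Calca, the gene of calcitonin and CGRP, read 12022, 15812, 17464, 6462 and 12649 CPM in aJ1aJ2 and 22753, 29458, 29976, 25595 and 26802 CPM in aN1aN2aN3. All 5 aN1aN2aN3 libraries were above all aJ1aJ2 libraries (log2FC 1.06 ± 0.29, edgeR adjusted p = 0.0259), with the call kept in 4 of 10 fits without 1 library (highest adjusted p 0.0685). Scg2, a granin of secretory granules, read 864, 817, 1144, 359 and 799 CPM in aJ1aJ2 and 1684, 2185, 2147, 1797 and 1582 CPM in aN1aN2aN3, also without overlap (log2FC 1.24 ± 0.28, edgeR adjusted p = 0.0107). Pcsk2, the prohormone convertase PC2, rose from 42.5–142 to 205–306 CPM (log2FC 1.51 ± 0.29, edgeR adjusted p = 0.00558), and the fourth called gene was the granin Chgb (1.69). The summed list took 0.696 to 2.66% of counts in aJ1aJ2 and 3.15 to 4.88% in aN1aN2aN3. Parathyroid genes did not pass: Pth, which encodes parathyroid hormone, read 39947, 73009.6, 97.98, 17494 and 71335 CPM in aJ1aJ2 and 28892, 14857, 43368, 9605 and 38646 CPM in aN1aN2aN3 (log2FC -0.58 ± 1.04, edgeR adjusted p = 0.723). Its level in aJ1aJ2 replicate 3 was far below that of every other library of the set.

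Genes that glucocorticoids induce were higher in aN1aN2aN3. Of 18 members, all tested, 16 rose and 0 fell, with a list median of 1.37, and all 18 log2 fold changes were above 0. Fkbp5, a cochaperone of the glucocorticoid receptor, read 70.04, 80.1, 63.4, 136 and 134 CPM in aJ1aJ2 and 240.3, 251, 232, 284 and 271 CPM in aN1aN2aN3. The groups did not overlap (log2FC 1.40 ± 0.23, edgeR adjusted p = 0.00300). Per1, a clock gene with direct glucocorticoid receptor control, read 16.3, 18.1, 14.1, 21.6 and 28.1 CPM in aJ1aJ2 and 38.9, 49.5, 87.8, 51.7 and 148 CPM in aN1aN2aN3 (log2FC 1.94 ± 0.36, edgeR adjusted p = 0.00502). The aN1aN2aN3 libraries spread widely but stayed above every aJ1aJ2 library. Hif3a, given above, was also a member. Nfkbia, the inhibitor of NF-kappaB, rose from 158–471 to 677–922 CPM (log2FC 1.17 ± 0.28, edgeR adjusted p = 0.0152). Pdk4, the kinase that shuts pyruvate dehydrogenase, read 136, 149, 88.4, 567 and 148 CPM in aJ1aJ2 and 1211, 725, 611, 437 and 918 CPM in aN1aN2aN3. It was high in aJ1aJ2 replicate 4 and overlapped (log2FC 1.84 ± 0.50, edgeR adjusted p = 0.0259, kept in 7 of 10 fits without 1 library). Mt1, a metallothionein, rose without overlap (0.91 ± 0.28, edgeR adjusted p = 0.0380) and kept its call in 2 of 10 such fits. The 2 members not called were Mt2 (0.38) and Lcn2 (0.39), and Tsc22d3, the leucine zipper protein GILZ, rose by 0.97 without overlap. From 10 to 15 members were called when 1 library was left out, the fewest without aN1aN2aN3 replicate 5, and 17 when both muscle-rich aJ1aJ2 libraries were left out. The list had been chosen with earlier results of these data known, and neither the time of day of collection nor corticosterone was given in the sources used here.

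Sgk1, the serum- and glucocorticoid-regulated kinase, chosen here for its sequence after its values were seen, read 91.2, 96.7, 67.01, 194 and 98.9 CPM in aJ1aJ2 and 353, 274, 396, 184 and 462 CPM in aN1aN2aN3. Replicate 4 was the highest of the aJ1aJ2 and the lowest of the aN1aN2aN3 libraries, and these 2 overlapped (log2FC 1.61 ± 0.31, edgeR adjusted p = 0.00580). The 250 bases before its start are shown because they hold the palindromic glucocorticoid response element, in capitals, at positions -188 to -176 (RefSeq, GRCm38.p6, chr10:21993640-21993889, plus strand).
Sgk1: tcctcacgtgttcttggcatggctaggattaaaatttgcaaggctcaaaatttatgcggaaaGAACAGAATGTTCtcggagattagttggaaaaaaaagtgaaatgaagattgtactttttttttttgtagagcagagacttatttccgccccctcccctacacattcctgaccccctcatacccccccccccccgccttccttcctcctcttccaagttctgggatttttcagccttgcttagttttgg
The letters searched were GNACANNNTGTNC, on both strands, where N is any base. They occurred in 2 of the 16 members with a promoter sequence, Mt1 and Sgk1, and in 0.387% of 32851 mouse promoters of the same length. Both were called, but so were 14 of those 16 members, so the match cannot be linked to the calls. A match describes the sequence only.

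Some immediate early and clock genes were called. Of 16 immediate early genes tested 6 rose and 0 fell, with Btg2, an antiproliferative early gene, at 74.04–107 CPM in aJ1aJ2 and 218–757 CPM in aN1aN2aN3 (log2FC 1.91 ± 0.33, edgeR adjusted p = 0.00340). Junb, an AP-1 subunit, read 59.1, 69.4, 59.3, 27.00 and 59.5 CPM in aJ1aJ2 and 70.8, 181, 240.3, 95.4 and 389 CPM in aN1aN2aN3 (log2FC 1.83 ± 0.44, edgeR adjusted p = 0.0169), whereas Fos was not called (log2FC 0.41 ± 0.29, edgeR adjusted p = 0.344). Dusp1, a phosphatase that also belongs to the glucocorticoid list, rose (1.08 ± 0.35, edgeR adjusted p = 0.0493) with overlap and kept its call in 2 of 10 fits without 1 library. Of 19 clock genes 4 rose and 0 fell (21.1% called, near the 19.6% over all genes), among them Per1, the repressor Cry2 (1.19 ± 0.28, edgeR adjusted p = 0.0145) and the nuclear receptor Nr1d1 (1.14 ± 0.29, edgeR adjusted p = 0.0182), which lost its call without aN1aN2aN3 replicate 3 (1.01, edgeR adjusted p = 0.0516). Arntl, the BMAL1 subunit of the clock activator, read 6.25, 4.36, 5.34, 69.97 and 8.88 CPM in aJ1aJ2 and 29.8, 50.9, 70.9, 42.3 and 72.5 CPM in aN1aN2aN3. Only aJ1aJ2 replicate 4 reached the range of the aN1aN2aN3 libraries, and the gene was not called (log2FC 1.496 ± 0.80, edgeR adjusted p = 0.214). The same library was low in Dbp, an output gene of the clock, which read 149, 188, 150.3, 20.98 and 214 CPM in aJ1aJ2 and 129.6, 99.5, 109, 128 and 123 CPM in aN1aN2aN3 (log2FC -0.30 ± 0.44, edgeR adjusted p = 0.663). Without both muscle-rich aJ1aJ2 libraries, 10 clock genes rose and 2 fell.

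Genes of fat synthesis and of fat cells were lower in aN1aN2aN3. Of 14 lipogenic genes tested 9 fell and 0 rose, with a list median of -1.06 (-0.12 with the adipocyte covariate). Thrsp, a thyroid hormone-responsive regulator of lipogenesis, read 629, 1288, 631, 775 and 865 CPM in aJ1aJ2 and 145, 88.1, 30.7, 89.3 and 51.8 CPM in aN1aN2aN3. The groups did not overlap (log2FC -3.37 ± 0.40, edgeR adjusted p = 0.000748). Fasn, the fatty acid synthase, read 76.5, 254, 114, 446 and 438 CPM in aJ1aJ2 and 51.2, 63.99, 69.96, 84.01 and 108 CPM in aN1aN2aN3, with a narrow overlap (log2FC -1.82 ± 0.47, edgeR adjusted p = 0.0213), and lost its call without aN1aN2aN3 replicate 2 (-1.76, edgeR adjusted p = 0.0558) or 3 (-1.79, 0.0571). Acly, which makes cytosolic acetyl-CoA, fell (-1.09 ± 0.30, edgeR adjusted p = 0.0255) with overlapping groups and kept its call in 7 of 10 fits without 1 library. From 5 to 10 members fell when 1 library was left out, and 6 without both muscle-rich aJ1aJ2 libraries. Of 16 general adipocyte genes 9 fell and 0 rose (median -1.60). The hormone adiponectin (Adipoq) read 391, 321, 385, 334 and 275 CPM in aJ1aJ2 and 116, 67.7, 31.6, 100.2 and 84.3 CPM in aN1aN2aN3 (log2FC -2.09 ± 0.30, edgeR adjusted p = 0.00166). The fatty acid carrier Fabp4 read 2106, 2952, 1879.5, 2939.5 and 1963 CPM in aJ1aJ2 and 915, 580.1, 197, 342 and 407 CPM in aN1aN2aN3 (log2FC -2.28 ± 0.37, edgeR adjusted p = 0.00281). The adipokine Cfd fell from 1166–2280.4 to 181–840.3 CPM (log2FC -1.70 ± 0.38, edgeR adjusted p = 0.0114), all 3 without overlap, and lipoprotein lipase (Lpl) fell with overlap (-1.49 ± 0.36, edgeR adjusted p = 0.0150).

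**Figure D3:**
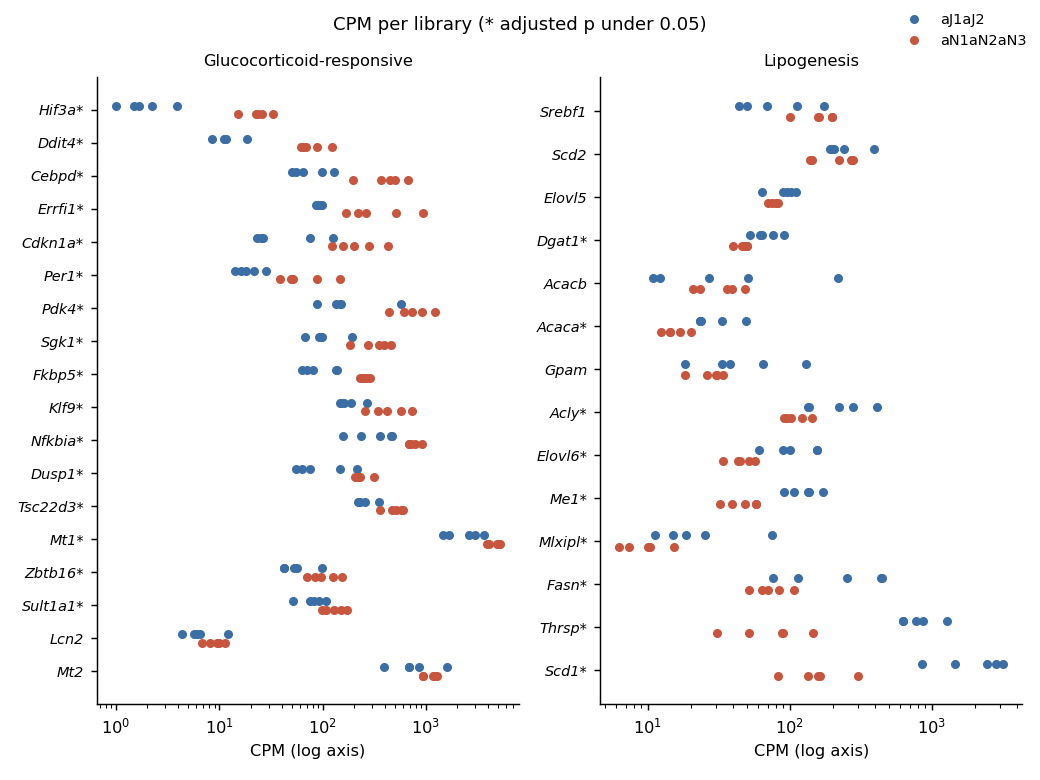
CPM on a log axis of the tested members of the glucocorticoid-responsive list (left) and the lipogenesis list (right), ordered by log2 fold change, with 5 aJ1aJ2 (blue) and 5 aN1aN2aN3 (red) libraries per gene. Asterisks mark an adjusted p under 0.05. On the left panel 16 genes are called higher and on the right panel 9 are called lower in aN1aN2aN3. Red and blue points do not overlap for 9 members on the left and 6 on the right.

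Brown fat genes were lower in part. Of 13 tested 6 fell and 1 rose (median -1.90, and 0.66 with the adipocyte covariate). Ucp1, the uncoupling protein of brown adipocytes, read 545, 1246, 310.4, 1353 and 329 CPM in aJ1aJ2 and 142, 252, 1.35, 9.87 and 7.33 CPM in aN1aN2aN3. All aN1aN2aN3 libraries were lower than all aJ1aJ2 libraries, but the gene missed the threshold (log2FC -3.20 ± 1.28, edgeR adjusted p = 0.108). Cidea, a lipid droplet protein, read 206, 383, 154, 293 and 109 CPM in aJ1aJ2 and 123, 27.1, 24.3, 35.8 and 54.6 CPM in aN1aN2aN3 (log2FC -2.11 ± 0.50, edgeR adjusted p = 0.0166), with overlap through aN1aN2aN3 replicate 1. The muscle-type cytochrome oxidase subunits Cox7a1 (-3.15 ± 0.94, edgeR adjusted p = 0.0440) and Cox8b (-2.64 ± 0.80, edgeR adjusted p = 0.0445) were also lower, and are shared with skeletal muscle. Both were highest in the muscle-rich aJ1aJ2 replicates 4 and 5 and, within aN1aN2aN3, in replicate 1, and they kept their calls in 3 and 1 of 10 fits without 1 library. Between 2 and 6 members fell when 1 library was left out, and 3 without both muscle-rich aJ1aJ2 libraries. The coactivator Ppargc1a did not differ beyond its spread (log2FC 0.04 ± 0.18, edgeR adjusted p = 0.902), and the brown fat factor Prdm16 was the 1 member that rose (0.83).

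Sterol synthesis, fatty acid oxidation and glycolysis showed smaller and mixed differences. Of 23 genes of cholesterol synthesis and uptake 6 fell and 1 rose (3 lower without aJ1aJ2 replicate 2 or aN1aN2aN3 replicate 3 or 5), among them Hmgcs1, the cytosolic HMG-CoA synthase, from 47.05–75.6 to 24.5–37.2 CPM without overlap (log2FC -0.91 ± 0.17, edgeR adjusted p = 0.00490), the sterol oxidase Msmo1 (-0.84 ± 0.23, edgeR adjusted p = 0.0272) and, upward, the squalene synthase Fdft1 (0.45 ± 0.14, edgeR adjusted p = 0.0414). Msmo1 and Fdft1 kept their calls in 3 and 3 of 10 fits without 1 library. Of 19 fatty acid oxidation genes 4 fell (1 without aN1aN2aN3 replicate 3 or 5, 2 without 4 and 7 without 1), among them the reductase Decr1 (-0.95 ± 0.24, edgeR adjusted p = 0.0184) and the electron transfer flavoprotein subunits Etfa (-0.68 ± 0.21, edgeR adjusted p = 0.0399) and Etfb (-0.79 ± 0.21, edgeR adjusted p = 0.0219), which kept their calls in 8, 2 and 7 of 10 such fits. The 1 member that rose was Cpt1a, the carnitine palmitoyltransferase of liver and most tissues, which read 53.4, 57.4, 37.04, 30.9 and 49.8 CPM in aJ1aJ2 and 85.2, 143, 70.3, 90.7 and 67.4 CPM in aN1aN2aN3, without overlap (log2FC 1.00 ± 0.24, edgeR adjusted p = 0.0147). The dehydrogenase Acadm was not called (log2FC -0.67 ± 0.24, edgeR adjusted p = 0.0693). In the fatty acid oxidation list 26.3% were called, against 19.6% over all genes. Of 19 glycolytic genes 2 rose and 2 fell (21.1% called, near the 19.6% over all genes), and 6 rose and 1 fell without both muscle-rich aJ1aJ2 libraries. Slc2a1, the glucose transporter GLUT1, rose (0.91 ± 0.20, edgeR adjusted p = 0.0106), while the enolase Eno1 fell (-0.87 ± 0.19, edgeR adjusted p = 0.0108), as did Ldha, lactate dehydrogenase A (-1.55 ± 0.50, edgeR adjusted p = 0.0496, kept in 3 of 10 such fits). The median of the glycolysis list went from -0.87 to 0.41 without the muscle-rich aJ1aJ2 libraries. Gapdh was listed at only 0.810–9.31 CPM in aJ1aJ2 and 0.538–3.10 CPM in aN1aN2aN3, and genes with many near-identical pseudogenes such as Eno1, Ldha and Gapdh are uncertain here.

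Most respiratory chain genes tested were called lower. The 10 mitochondrially encoded genes tested all fell, with a median of -1.67 (-0.22 with the adipocyte covariate), and 6 fell without aN1aN2aN3 replicate 3. The cytochrome b gene mt-Cytb read 7984, 8736, 13716, 16541 and 11365 CPM in aJ1aJ2 and 7171, 2935, 3931, 3518 and 3323 CPM in aN1aN2aN3. All aJ1aJ2 libraries were above all aN1aN2aN3 libraries (log2FC -1.48 ± 0.32, edgeR adjusted p = 0.00935). The complex I gene mt-Nd4 read 1663, 1699.8, 3103, 3895 and 4569.8 CPM in aJ1aJ2 and 1570.3, 593, 809.8, 745 and 727 CPM in aN1aN2aN3, also apart (log2FC -1.75 ± 0.37, edgeR adjusted p = 0.00815), and mt-Nd1 fell with overlap (-1.66 ± 0.37, edgeR adjusted p = 0.0109). The oxidase gene mt-Co1 read 1645, 1582, 2844, 4141 and 1743 CPM in aJ1aJ2 and 1800.2, 563, 759, 699 and 676 CPM in aN1aN2aN3 (log2FC -1.41 ± 0.39, edgeR adjusted p = 0.0254), with overlap through aN1aN2aN3 replicate 1, and kept its call in 5 of 10 fits without 1 library. These genes together took 2.01 to 3.55% of counts in aJ1aJ2 and 0.701 to 1.72% in aN1aN2aN3, where replicate 1 was the highest. Neighbouring mitochondrial genes are read from shared transcripts.

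Nuclear subunits went the same way. Of 36 complex I subunits tested 26 fell and 0 rose (median -0.97), and of 39 subunits of complexes II to V 28 fell and 0 rose (median -0.95), with every log2 fold change below 0 in both lists. With the adipocyte covariate these medians were -0.15 and -0.13. The complex I subunit Ndufa13 read 595, 626, 775, 814 and 633 CPM in aJ1aJ2 and 549.6, 315, 338, 352 and 271 CPM in aN1aN2aN3 (log2FC -0.91 ± 0.21, edgeR adjusted p = 0.0132), and Ndufc2 read 461, 511, 546, 473 and 736 CPM in aJ1aJ2 and 357, 222, 292, 267 and 233 CPM in aN1aN2aN3 (log2FC -0.99 ± 0.20, edgeR adjusted p = 0.00629). Neither overlapped. Ndufa4, a subunit of complex IV, fell from 640.3–1772 to 262–598 CPM (log2FC -1.53 ± 0.32, edgeR adjusted p = 0.00826), and Cox6b1 from 732–1127 to 275–639.8 CPM (log2FC -1.29 ± 0.25, edgeR adjusted p = 0.00624). Cox6c fell by 1.83 without overlap and was highest in aJ1aJ2 replicate 5, and it lost its call without aN1aN2aN3 replicate 2 (-1.75, edgeR adjusted p = 0.0531) or 5 (-1.75, 0.0537). The complex I core subunit Ndufs1 (-0.91 ± 0.27, edgeR adjusted p = 0.0322) and Ndufb9 (-0.95 ± 0.30, edgeR adjusted p = 0.0441) fell with overlap and kept their calls in 6 and 2 of 10 fits without 1 library. The ATP synthase subunit Atp5b (log2FC -0.55 ± 0.32, edgeR adjusted p = 0.243) and the oxidase subunit Cox4i1 (log2FC -0.48 ± 0.22, edgeR adjusted p = 0.134) were not called. When 1 library was left out 17 to 31 subunits of complex I and 11 to 30 of complexes II to V fell, fewest without aN1aN2aN3 replicate 2 or 5, and without both muscle-rich aJ1aJ2 libraries 28 and 25 fell. Brown fat and muscle are rich in mitochondria, and the adipocyte share was also lower in aN1aN2aN3. Whether that share and these genes went together within a group was not tested. The part of fat in the result was not tested. The covariate fit, in which 0 genes passed, cannot test it, because 83.9% of the variance of the adipocyte share lay between the groups.

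Some genes of matrix enzymes and ribosomes of the mitochondrion were lower as well. Of 19 citric acid cycle genes 6 fell and 0 rose (median -0.81, -0.29 without both muscle-rich aJ1aJ2 libraries, and 0.34 with the adipocyte covariate). The succinyl-CoA ligase subunit Sucla2 read 545, 712, 533, 1146 and 398 CPM in aJ1aJ2 and 383, 241, 202, 215 and 182 CPM in aN1aN2aN3 (log2FC -1.45 ± 0.30, edgeR adjusted p = 0.00843), and the isocitrate dehydrogenase subunit Idh3a read 495, 692, 439.8, 1204 and 477 CPM in aJ1aJ2 and 427, 282, 215, 189.5 and 176 CPM in aN1aN2aN3 (log2FC -1.36 ± 0.34, edgeR adjusted p = 0.0167). Neither overlapped. The 6 called genes included Mdh1, the malate dehydrogenase of the cytosol, which is not a matrix enzyme. Mdh1 fell with overlap (-0.94 ± 0.24, edgeR adjusted p = 0.0186, kept in 6 of 10 fits without 1 library), and citrate synthase (Cs) was not called (log2FC -1.10 ± 0.38, edgeR adjusted p = 0.0627). Of 77 mitochondrial ribosomal protein genes 29 fell and 0 rose (median -0.51), for example Mrpl12 (-0.93 ± 0.23, edgeR adjusted p = 0.0163) and Mrpl42 (-1.26 ± 0.31, edgeR adjusted p = 0.0175) without overlap, and Mrpl33 (-1.14 ± 0.34, edgeR adjusted p = 0.0348) and Mrps24 (-0.74 ± 0.21, edgeR adjusted p = 0.0302) with overlap. The last 2 kept their calls in 6 and 3 of 10 fits without 1 library, and the count of the list ran from 12 to 42 over those fits, lowest without aN1aN2aN3 replicate 4. Of 62 cytosolic ribosomal proteins 4 were lower and 1 higher (8.06% called, median -0.23), below the 19.6% over all genes, and 0 to 11 were lower without 1 library, most without aJ1aJ2 replicate 4. Their levels were low for such genes (Rplp0 29.8–41.8 CPM in aJ1aJ2), and reads they share with pseudogenes make them uncertain.

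**Figure D4:**
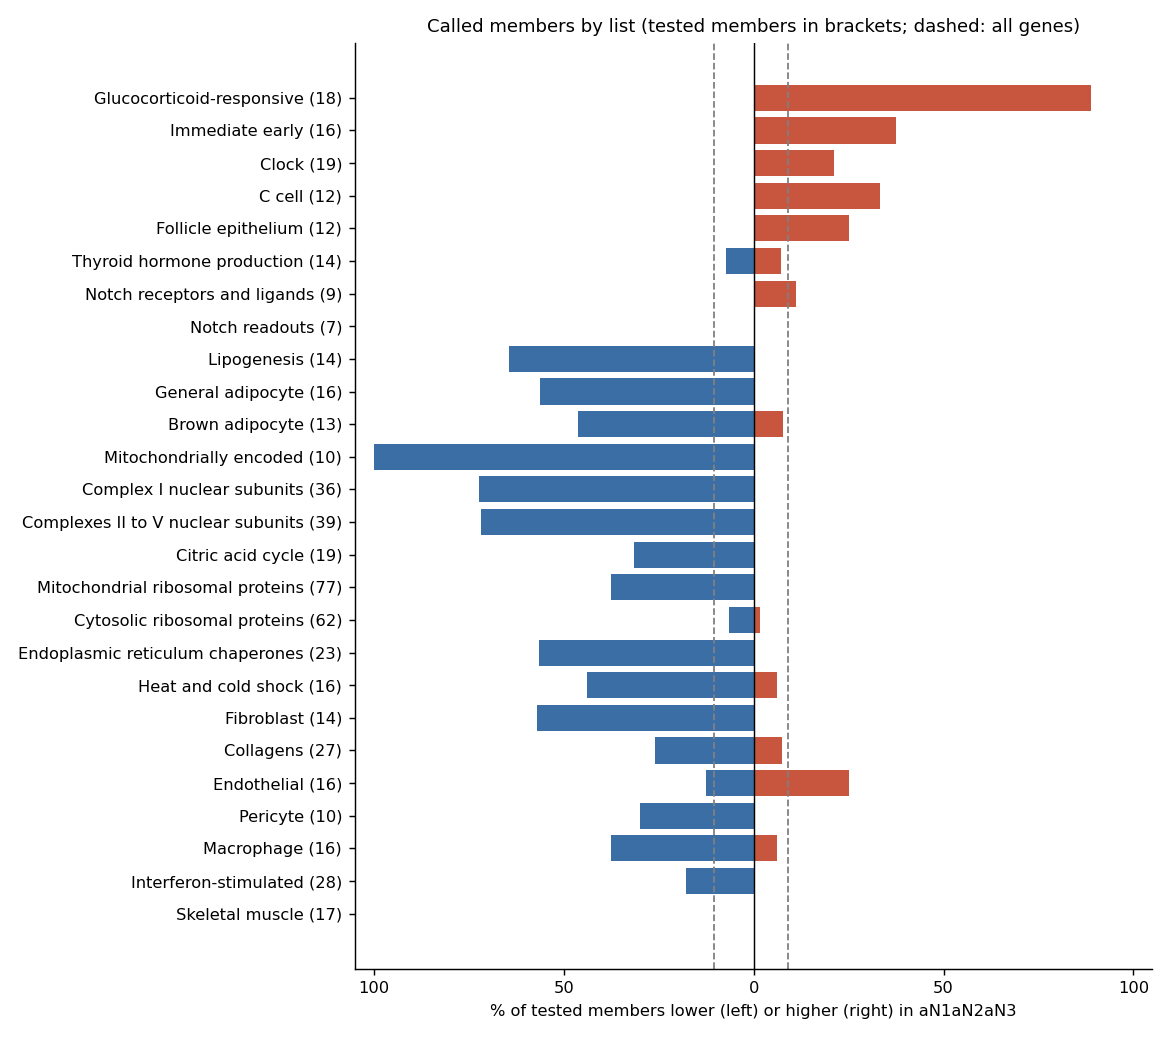
Percent of the tested members of 26 gene lists called lower (blue, left) or higher (red, right) in aN1aN2aN3 than in aJ1aJ2, with the number tested in brackets. Dashed lines mark the shares over all 18450 genes tested, 10.4% lower and 9.19% higher. The glucocorticoid-responsive list reaches 16 of 18 higher and the mitochondrially encoded list 10 of 10 lower.

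Chaperones of the endoplasmic reticulum, which fold secreted proteins such as thyroglobulin, were lower in aN1aN2aN3. Of 23 genes tested 13 fell and 0 rose, with a median of -0.81. Hspa5, the Hsp70 chaperone BiP, read 2087, 1643, 2337, 1069 and 1815 CPM in aJ1aJ2 and 679, 721, 832, 649 and 734 CPM in aN1aN2aN3. The groups did not overlap (log2FC -1.31 ± 0.23, edgeR adjusted p = 0.00340). Hsp90b1, the Hsp90 chaperone GRP94, read 2393, 1952, 2507, 1076 and 1040.5 CPM in aJ1aJ2 and 643, 527, 589.7, 657 and 568 CPM in aN1aN2aN3 (log2FC -1.59 ± 0.28, edgeR adjusted p = 0.00362), also without overlap. In aJ1aJ2 replicates 4 and 5 it was lower than in replicates 1 to 3, but still above all aN1aN2aN3 libraries. Pdia3, a disulfide isomerase, read 1549, 1659, 1765, 578 and 936 CPM in aJ1aJ2 and 719, 589, 644, 654 and 557 CPM in aN1aN2aN3. It was called with overlap through aJ1aJ2 replicate 4 (log2FC -1.04 ± 0.29, edgeR adjusted p = 0.0262) and kept its call in 3 of 10 fits without 1 library. Xbp1 (-0.22) and Herpud1 (0.09), also of the unfolded protein response, were not called. Between 11 and 14 members fell when 1 library was left out, and 17 without both muscle-rich aJ1aJ2 libraries. Tg rose in the same comparison.

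Promoters of 4 called members are shown because they hold the endoplasmic reticulum stress element, in capitals. They are the 250 bases before the start in RefSeq on GRCm38.p6: chr2:34771840-34772089 (plus strand) for Hspa5, chr10:86705445-86705694 (minus strand) for Hsp90b1, chr12:17266339-17266588 (plus strand) for Pdia6 and chr15:88819396-88819645 (plus strand) for Creld2. Positions count back from the start, read 5′ to 3′ along the gene.
Hspa5: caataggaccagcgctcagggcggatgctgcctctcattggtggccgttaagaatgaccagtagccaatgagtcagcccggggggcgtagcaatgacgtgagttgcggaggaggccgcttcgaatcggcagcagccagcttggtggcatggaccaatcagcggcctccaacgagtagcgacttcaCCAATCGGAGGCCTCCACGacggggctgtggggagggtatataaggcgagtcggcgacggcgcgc
Hsp90b1: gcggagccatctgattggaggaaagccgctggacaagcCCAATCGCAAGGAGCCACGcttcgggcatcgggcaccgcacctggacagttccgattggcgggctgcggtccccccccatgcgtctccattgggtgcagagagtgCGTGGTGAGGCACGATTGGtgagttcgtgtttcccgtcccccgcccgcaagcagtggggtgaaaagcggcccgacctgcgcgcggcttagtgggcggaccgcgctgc
Pdia6: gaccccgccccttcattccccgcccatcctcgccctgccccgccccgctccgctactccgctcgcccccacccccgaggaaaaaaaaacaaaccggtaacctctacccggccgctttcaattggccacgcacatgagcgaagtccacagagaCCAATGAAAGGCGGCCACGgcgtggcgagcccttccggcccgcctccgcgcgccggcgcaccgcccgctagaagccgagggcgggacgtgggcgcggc
Creld2: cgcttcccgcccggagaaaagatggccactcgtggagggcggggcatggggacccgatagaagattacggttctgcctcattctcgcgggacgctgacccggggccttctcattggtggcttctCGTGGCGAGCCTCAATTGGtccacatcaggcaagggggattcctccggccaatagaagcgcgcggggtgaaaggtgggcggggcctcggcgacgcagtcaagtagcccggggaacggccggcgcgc
The letters searched were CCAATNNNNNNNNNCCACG on both strands. The match lay at -65 to -47 in Hspa5 and -98 to -80 in Pdia6, on the reverse strand at -126 to -108 in Creld2, and in Hsp90b1 at -212 to -194 and, on the reverse strand, at -107 to -89. Among the 19 members with a promoter sequence, 5 of 10 called genes (these 4 and Calr) and 3 of 9 not called (Canx, Dnajc3 and Syvn1) held it, against 0.113% of 32851 promoters. Ero1l, Ero1lb, Hyou1 and Manf had no entry. Pdia6 and Creld2 were chosen for their sequence after their values were seen. The disulfide isomerase Pdia6 read 1019, 876, 1000.2, 533 and 595 CPM in aJ1aJ2 and 310.0, 317, 254, 281 and 251 CPM in aN1aN2aN3 (log2FC -1.51 ± 0.22, edgeR adjusted p = 0.00181), and Creld2, a secreted stress protein, read 174, 163, 233, 88.7 and 238 CPM in aJ1aJ2 and 70.8, 93.3, 77.3, 71.2 and 74.5 CPM in aN1aN2aN3, with overlap through aJ1aJ2 replicate 4 (log2FC -1.21 ± 0.24, edgeR adjusted p = 0.00615). Because the letters occurred in called and uncalled members alike, the match did not separate them.

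**Figure D5:**
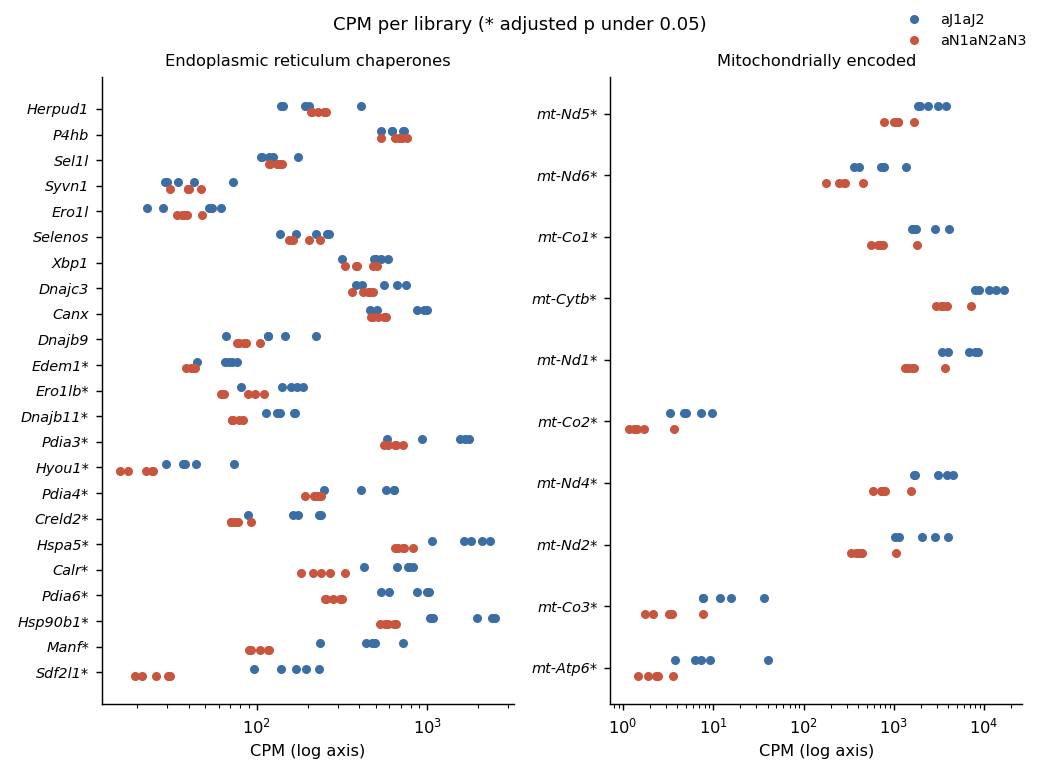
CPM on a log axis of the tested endoplasmic reticulum chaperone genes (left) and mitochondrially encoded genes (right), ordered by log2 fold change, in 5 aJ1aJ2 (blue) and 5 aN1aN2aN3 (red) libraries. Asterisks mark an adjusted p under 0.05. Of the 23 genes on the left 13 are called lower, and of the 10 on the right all are.

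Of 16 heat and cold shock genes 7 fell and 1 rose, with 4 lower without aN1aN2aN3 replicate 3 and 6 higher without both muscle-rich aJ1aJ2 libraries. Cirbp, the cold-inducible RNA-binding protein, read 89.95, 106, 79.8, 73.7 and 79.1 CPM in aJ1aJ2 and 289, 352, 467, 374 and 393 CPM in aN1aN2aN3. It was among the most sharply separated genes of the set (log2FC 2.13 ± 0.18, edgeR adjusted p = 0.000310). Its cold-induced relative Rbm3 fell (-1.09 ± 0.21, edgeR adjusted p = 0.00494), as did the Hsp90 cochaperone Chordc1, which read 114, 111, 127, 119.9 and 84.6 CPM in aJ1aJ2 and 55.00, 43.8, 34.4, 37.6 and 31.7 CPM in aN1aN2aN3, without overlap (log2FC -1.46 ± 0.18, edgeR adjusted p = 0.000928), and the Hsp40 Dnaja1 (-0.69 ± 0.17, edgeR adjusted p = 0.0157). Hspa1a, one of a near-identical pair of Hsp70 genes, was not called (log2FC 0.82 ± 0.29, edgeR adjusted p = 0.0670). In the list of the integrated stress response, 3 of 18 genes rose and 2 fell (27.8% called, against 19.6% over all genes). Sesn2, a sestrin that restrains mTORC1, read 19.9, 21.2, 19.3, 28.4 and 40.2 CPM in aJ1aJ2 and 64.9, 183, 127, 109.9 and 146 CPM in aN1aN2aN3 (log2FC 2.29 ± 0.29, edgeR adjusted p = 0.00114), and Ppp1r15a, the phosphatase subunit GADD34, read 26.4, 29.3, 28.4, 54.2 and 48.3 CPM in aJ1aJ2 and 75.03, 83.1, 119, 78.3 and 139 CPM in aN1aN2aN3 (log2FC 1.41 ± 0.26, edgeR adjusted p = 0.00453). Both were apart between the groups. Ddit3, the factor CHOP, fell from 35.6–37.5 to 19.8–25.3 CPM (log2FC -0.72 ± 0.13, edgeR adjusted p = 0.00411), and Atf4 was not called (log2FC -0.05 ± 0.26, edgeR adjusted p = 0.914).

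Of 23 antioxidant genes 2 rose and 5 fell, where 9.19 and 10.4% of all genes did. The lower count was 1 without aN1aN2aN3 replicate 4 or 5, and 2 without TMM scaling or without the count filter. Prdx6, a peroxiredoxin with phospholipase activity, read 482, 548, 631, 313 and 453 CPM in aJ1aJ2 and 1163, 1387, 1707, 1266 and 1147 CPM in aN1aN2aN3 (log2FC 1.46 ± 0.22, edgeR adjusted p = 0.00217). Prdx1 went the other way, as it read 728, 734, 909, 558 and 835 CPM in aJ1aJ2 and 416, 355, 297, 306 and 257 CPM in aN1aN2aN3 (log2FC -1.21 ± 0.20, edgeR adjusted p = 0.00273), and the mitochondrial Prdx3 fell without overlap (-0.78 ± 0.19, edgeR adjusted p = 0.0175), losing its call without aN1aN2aN3 replicate 4 (-0.71, edgeR adjusted p = 0.0502) or 5 (-0.74, 0.0506). Gpx3, a secreted glutathione peroxidase abundant in thyroid, was not called (log2FC -0.34 ± 0.21, edgeR adjusted p = 0.262). Of 14 hypoxia genes 5 rose and 2 fell, the latter count being 1 in most fits without 1 library. Besides Hif3a and Slc2a1, the pyruvate dehydrogenase kinase Pdk1 rose from 119–166 to 186–249 CPM (log2FC 0.69 ± 0.15, edgeR adjusted p = 0.0107). Hif1a, the oxygen-regulated factor itself, fell from 268–489.7 to 163–245 CPM (log2FC -0.88 ± 0.21, edgeR adjusted p = 0.0137), and Vegfa, the endothelial growth factor, fell with overlap (-0.60 ± 0.18, edgeR adjusted p = 0.0354, kept in 2 of 10 fits without 1 library).

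Fibroblast genes were lower in part. Of 14 fibroblast genes 8 fell and 0 rose (median -1.47, -0.87 with 5 called without both muscle-rich aJ1aJ2 libraries, and 0.13 with the adipocyte covariate). The small proteoglycan Lum read 96.2, 130.3, 121, 57.9 and 183 CPM in aJ1aJ2 and 27.3, 4.14, 9.06, 44.2 and 12.8 CPM in aN1aN2aN3. The groups did not overlap, with replicates 2, 3 and 5 of aN1aN2aN3 the lowest (log2FC -2.59 ± 0.60, edgeR adjusted p = 0.0159). Mfap5, a microfibril protein of adventitial fibroblasts, read 59.8, 79.9, 59.6, 51.8 and 73.03 CPM in aJ1aJ2 and 28.4, 9.12, 7.16, 23.9 and 10.2 CPM in aN1aN2aN3 (log2FC -2.04 ± 0.37, edgeR adjusted p = 0.00471), and Pi16, a marker of the same cells, fell without overlap (-2.49 ± 0.65, edgeR adjusted p = 0.0260, kept in 8 of 10 fits without 1 library). Decorin (Dcn) was not called (log2FC -0.78 ± 0.30, edgeR adjusted p = 0.0873). Of 27 collagen genes 7 fell and 2 rose (median -0.46, and 0.83 with the adipocyte covariate), with 4 lower without aN1aN2aN3 replicate 2, 3 or 5, and 4 and 6 higher without aJ1aJ2 replicates 4 and 5. Col3a1, a fibrillar collagen, fell from 43.9–245 to 6.95–27.1 CPM (log2FC -2.67 ± 0.61, edgeR adjusted p = 0.0149), whereas Col1a1 missed the threshold (log2FC -2.51 ± 0.80, edgeR adjusted p = 0.0511). The 2 that rose were the basement membrane chains Col4a3, which read 68.3, 53.01, 69.8, 50.9 and 55.1 CPM in aJ1aJ2 and 132, 184, 210.2, 219.9 and 267 CPM in aN1aN2aN3 (log2FC 1.77 ± 0.20, edgeR adjusted p = 0.000583), and Col4a4, its neighbour on the chromosome, which read 39.3, 27.97, 39.1, 30.2 and 31.03 CPM in aJ1aJ2 and 75.2, 86.4, 122, 146 and 147 CPM in aN1aN2aN3 (log2FC 1.78 ± 0.21, edgeR adjusted p = 0.000785). Col4a1 was not called (log2FC 0.63 ± 0.29, edgeR adjusted p = 0.149). Of 22 collagen folding and crosslinking genes 6 fell and 2 rose. The collagen chaperone Serpinh1 fell (-1.34 ± 0.23, edgeR adjusted p = 0.00327) with the procollagen enhancer Pcolce (-2.04 ± 0.35, edgeR adjusted p = 0.00340), while the prolyl isomerase Fkbp10 rose (1.21 ± 0.27, edgeR adjusted p = 0.0101) with lysyl oxidase (Lox, 1.28 ± 0.34, edgeR adjusted p = 0.0227), which kept its call in 6 of 10 fits.

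Of 16 endothelial genes 4 rose and 2 fell, and 8 rose without both muscle-rich aJ1aJ2 libraries. The junction protein Pecam1 read 66.6, 60.2, 67.1, 84.1 and 80.6 CPM in aJ1aJ2 and 166, 133, 149, 147 and 199 CPM in aN1aN2aN3. The groups did not overlap (log2FC 1.15 ± 0.16, edgeR adjusted p = 0.00166). Esam, an endothelial adhesion molecule, rose from 32.2–46.6 to 58.1–88.8 CPM (log2FC 0.98 ± 0.17, edgeR adjusted p = 0.00332), and the sialomucin Emcn fell with overlap (-1.18 ± 0.30, edgeR adjusted p = 0.0184), losing its call without aN1aN2aN3 replicate 2 (-1.10, edgeR adjusted p = 0.0518). In the tip and arterial list 3 of 15 genes fell and 1 rose (26.7% called, against 19.6% over all genes), and 1 to 3 fell in fits without 1 library. Esm1, a tip cell proteoglycan induced by VEGF, read 64.3, 88.01, 96.4, 25.1 and 36.6 CPM in aJ1aJ2 and 13.7, 12.1, 16.5, 21.3 and 21.3 CPM in aN1aN2aN3, without overlap (log2FC -1.87 ± 0.35, edgeR adjusted p = 0.00511). The arterial connexin Gja5 fell (-0.66 ± 0.20, edgeR adjusted p = 0.0374) and the urokinase receptor Plaur rose (1.88 ± 0.52, edgeR adjusted p = 0.0272), with calls kept in 2 and 5 of 10 fits without 1 library. Of 10 pericyte genes 3 fell and 0 rose, and 1 fell without aN1aN2aN3 replicate 2, 3 or 5. Rgs5, a signalling regulator of pericytes, read 64.7, 63.7, 76.7, 86.5 and 42.4 CPM in aJ1aJ2 and 35.1, 12.4, 27.9, 27.1 and 35.8 CPM in aN1aN2aN3, without overlap (log2FC -1.27 ± 0.28, edgeR adjusted p = 0.00966). The proteoglycan Cspg4 (-1.94 ± 0.53, edgeR adjusted p = 0.0255) and Higd1b (-1.16 ± 0.34, edgeR adjusted p = 0.0328) fell too, with calls kept in 7 and 3 of 10 such fits. Of 10 smooth muscle genes 2 fell (20% called, near the 19.6% over all genes), Myl9 (-1.06 ± 0.27, edgeR adjusted p = 0.0186) and Tagln (-0.93 ± 0.27, edgeR adjusted p = 0.0331), with calls kept in 8 and 4 of 10, and Acta2 was not called (log2FC -0.87 ± 0.29, edgeR adjusted p = 0.0555). Between 0 and 5 fell in fits without 1 library, fewest without aN1aN2aN3 replicate 2 or 5 and most without aJ1aJ2 replicate 2. The smooth muscle median went from -0.996 to 0.18 without both muscle-rich aJ1aJ2 libraries. Of 17 skeletal muscle genes 0 were called in edgeR (median -1.74), with 0 at an unadjusted p under 0.05, 0 called by DESeq2 and 1 by limma-voom with quality weights, and their levels varied widely within aJ1aJ2. The skeletal muscle median turned to 1.72 without both muscle-rich aJ1aJ2 libraries and to 2.40 with the adipocyte covariate.

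Immune genes were called in part. Of 16 macrophage genes 6 fell and 1 rose, with 2 to 7 lower in fits without 1 library (2 without aJ1aJ2 replicate 1 or aN1aN2aN3 replicate 2, 3 or 5) and a median of -0.72 that turned to 0.36 with the adipocyte covariate. The mannose receptor Mrc1 read 29.5, 32.9, 24.99, 15.9 and 47.7 CPM in aJ1aJ2 and 14.7, 7.50, 5.48, 17.1 and 10.2 CPM in aN1aN2aN3 (log2FC -1.46 ± 0.35, edgeR adjusted p = 0.0143), with overlap, and Adgre1, the F4/80 antigen, fell (-1.33 ± 0.39, edgeR adjusted p = 0.0349, kept in 3 of 10 fits without 1 library). Mertk, a receptor for dying cells, rose without overlap (0.82 ± 0.21, edgeR adjusted p = 0.0182). Of 28 interferon-stimulated genes 5 fell and 0 rose, where 10.4% of all genes fell, with 3 to 9 lower in fits without 1 library (fewest without aJ1aJ2 replicate 3 or aN1aN2aN3 replicate 2, most without aN1aN2aN3 replicate 4) and 14 by limma-voom with quality weights. Isg15, an ubiquitin-like protein, fell from 3.92–6.97 to 0.927–2.97 CPM (log2FC -1.44 ± 0.35, edgeR adjusted p = 0.0149), and the chemokine Cxcl10 from 3.37–11.00 to 1.24–2.93 CPM (log2FC -1.61 ± 0.36, edgeR adjusted p = 0.0102). Ifit1 fell with overlap (-1.21 ± 0.36, edgeR adjusted p = 0.0367, kept in 3 of 10 fits). Of 16 MHC class II and dendritic genes 2 fell (12.5% called, below the 19.6% over all genes). Xcr1, the receptor of cross-presenting dendritic cells, read 2.22, 1.81, 2.88, 1.504 and 1.01 CPM in aJ1aJ2 and 0.219, 0, 0.0843, 0.0401 and 0 CPM in aN1aN2aN3 (log2FC -4.64 ± 0.65, edgeR adjusted p = 0.00166), and the other was the lectin Cd209a (-1.41 ± 0.38, edgeR adjusted p = 0.0250, kept in 6 of 10 fits). In the MHC class I list 1 of 13 fell (7.69% called, also below that share), the proteasome activator Psme2 (-0.61 ± 0.17, edgeR adjusted p = 0.0269, kept in 3 of 10 fits), and B2m was not called (log2FC -0.48 ± 0.29, edgeR adjusted p = 0.249). Of 10 T cell genes 0 were called in edgeR, with 0 at an unadjusted p under 0.05, 0 called by DESeq2 and 1 by limma-voom with quality weights. Of 27 cell cycle genes 4 rose and 4 fell (1 to 4 and 0 to 5 without 1 library, 3 and 0 without TMM scaling, and 4 and 0 without the count filter), with the replication helicase subunits Mcm4 (0.65 ± 0.16, edgeR adjusted p = 0.0175), Mcm6 (0.78 ± 0.24, edgeR adjusted p = 0.0380) and Mcm7 (0.71 ± 0.21, edgeR adjusted p = 0.0319) higher and the proliferation marker Mki67 not called (log2FC -0.55 ± 0.42, edgeR adjusted p = 0.369). The Mcm genes kept their calls in 9, 5 and 7 of 10 fits without 1 library.

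The ligand antibodies were also given in a first set at 7 days with its own RW libraries, and levels there show how far the sets differed. In a fit of all 20 libraries, aJ1aJ2 of the second set differed from aJ1aJ2 of the first in 12530 of 19570 genes (64.0%, 6680 or 34.1% higher, 5850 or 29.9% lower) by edgeR, against 5532 of 19570 between the antibodies in the same fit. The aN1aN2aN3 values can therefore be read against aJ1aJ2 of their own set only, and levels in the first set are given as a description. On the scale of that fit, Hif3a ranged over 1.87–8.99 CPM in RW and 6.70–15.2 CPM in aJ1aJ2 of the first set, and over 0.886–3.38 CPM in aJ1aJ2 and 13.5–29.1 CPM in aN1aN2aN3 of the second. Fkbp5 ranged over 26.96–81.5 CPM in RW and 82.7–239 CPM in aJ1aJ2 of the first set, and over 56.4–113 CPM in aJ1aJ2 and 207–258 CPM in aN1aN2aN3 of the second. For both genes, aN1aN2aN3 overlapped with aJ1aJ2 of the first set and lay above aJ1aJ2 of its own. Scd1 ranged over 3121–6979 CPM in RW and 3678–6759 CPM in aJ1aJ2 of the first set, and over 764–2675 CPM in aJ1aJ2 and 73.3–268 CPM in aN1aN2aN3 of the second. Notch3 ranged over 44.7–59.9 CPM in RW and 23.9–39.6 CPM in aJ1aJ2 of the first set, and over 2.47–5.60 CPM in aJ1aJ2 and 2.86–4.33 CPM in aN1aN2aN3 of the second, low in both groups of the second set. Hspa5 ranged over 892–1698 CPM in RW and 460.1–1603 CPM in aJ1aJ2 of the first set, and over 867–2080.0 CPM in aJ1aJ2 and 589–742 CPM in aN1aN2aN3 of the second. Slc5a5 ranged over 265–521 CPM in RW and 61.1–320.1 CPM in aJ1aJ2 of the first set, and over 53.5–97.2 CPM in aJ1aJ2 and 7.48–44.96 CPM in aN1aN2aN3 of the second. These ranges share the second-set libraries with the comparison above.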

How the data were processed

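RNA of snap-frozen thyroid was sequenced as 50-base single-end reads at an average depth of 40 M reads, per the labels' protocols. The values used are the deposited raw read counts per gene, and the authors' deposited FPKM (scaled for length and depth) served in 1 alternative. The submitters' processing notes name GSNAP and limma. Not given in the sources used here are the genome build, annotation and counting rule. Symbols were matched for 52403 of 52636 gene identifiers.

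The 10 libraries were fitted in edgeR 4.0.16 (R 4.3.3): TMM scaling, filterByExpr (minimum count 10, minimum total 15), robust quasi-likelihood test, two-sided, Benjamini-Hochberg adjustment over 18450 genes, threshold 0.05. Biological coefficient of variation was 0.389. The script was tested on simulated data. No replicate pair agreed within sampling noise (smallest chi-square per degree of freedom 34.5). limma 3.58.1 and DESeq2 1.42.0 gave alternatives. Promoters came from RefSeq.

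Named genes were the 10 largest called changes per direction with groups apart and at least 5 mean CPM in the higher group, each list's defining genes, its up to 3 called members with the highest mean CPM, and the Notch genes. Comparison, members and lists were chosen with earlier results of these data known, so no count over a list is independent support. The ribosomal list was trimmed of kinases and look-alike genes after values were seen. A few genes that this rule names are not reported here.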

Additional observations from a re-analysis of the deposited data

Results flagged for a closer look

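In groups of 5 libraries, the highest or lowest library stood apart from the other 4 by Dixon's 95% criterion in 52 of 370 groups, 2 per gene or library measure. For normally distributed values chance would give about 1 in 20. The criterion was applied to CPM without a log scale, and all genes share the same libraries. The flags are thus not independent, and their number cannot be weighed against that rate. Values below are CPM, with the range of the other 4 libraries in brackets.

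aJ1aJ2 replicate 2 was the highest of its group for Mcm4 17.1 (12.8–13.97). aJ1aJ2 replicate 3 was the highest of its group for Myl9 82.7 (51.8–57.4). aJ1aJ2 replicate 4 was the highest of its group for Adrb3 47.4 (15.7–20.5), Arntl 69.97 (4.36–8.88), Atf4 299.7 (122–168), Cnmd 11.96 (2.62–3.67), Crym 9.17 (2.67–4.51), Depp1 56.01 (12.2–22.7) and Gpx3 1578 (866–1004). aJ1aJ2 replicate 4 was the highest of its group also for Hapln1 7.23 (0.808–1.94), Ldha 1408 (263–477), Mrpl42 435 (177–221), Ndufb9 1260.0 (489–709), Ndufs1 578 (214–299), Pdk1 166 (119–129) and Pdk4 567 (88.4–149). aJ1aJ2 replicate 4 was the highest of its group also for Thrb 46.7 (17.3–23.6). aJ1aJ2 replicate 4 was the lowest of its group for Junb 27.00 (59.1–69.4). aJ1aJ2 replicate 5 was the highest of its group for Angptl8 19.9 (1.78–6.10), Col3a1 245 (43.9–91.7), Cox6c 4354 (820.5–1409), Dcn 2473 (954–1267), Esam 46.6 (32.2–35.8), Hspa1a 15.5 (5.29–7.23) and Lcn2 12.2 (4.36–6.52). aJ1aJ2 replicate 5 was the highest of its group also for Lox 17.97 (6.44–7.95), Mrpl33 489 (142–229), Ncstn 145 (65.8–76.7), Pcolce 68.8 (23.6–35.1), Ptger3 34.9 (13.9–14.97), Slc2a1 52.6 (28.6–33.02) and Tg 31334 (14716–17757). aJ1aJ2 replicate 5 was the highest of its group also for Tjp3 46.4 (30.5–31.6). aN1aN2aN3 replicate 1 was the highest of its group for Cox6b1 639.8 (275–377), Cox7a1 166 (12.8–36.5), Cox8b 397 (29.8–88.4), Higd1b 8.05 (2.59–3.97), Ldha 342 (129–169.6), Mdh1 1108 (643–754) and Ndufa4 598 (262–338). aN1aN2aN3 replicate 1 was the highest of its group also for Ndufb9 619.5 (281–357), Nppc 2.67 (0.440–0.691), mt-Co1 1800.2 (563–759), mt-Cytb 7171 (2935–3931), mt-Nd1 3737 (1335–1681) and mt-Nd4 1570.3 (593–809.8). aN1aN2aN3 replicate 2 was the highest of its group for Otop1 3.87 (0.211–1.27). aN1aN2aN3 replicate 4 was the highest of its group for Mertk 33.8 (16.1–20.1). aN1aN2aN3 replicate 5 was the highest of its group for Btg2 757 (218–319) and Dusp1 313 (203–227). As percent of counts, the skeletal muscle and mitochondrially encoded list of aN1aN2aN3 replicate 1 was the highest, at 4.99 (0.976–1.71) and 1.72 (0.701–0.905).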

How the results depend on the processing

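Between aN1aN2aN3 and aJ1aJ2, 8248 genes were called by limma-voom with library quality weights (4101 higher, 4147 lower), 5532 in the fit of all 20 libraries at 7 days (2657 higher), 0 with the adipocyte share as covariate (0 higher, 0 lower), and, in an alternative chosen after seeing the data, 6824 without both muscle-rich aJ1aJ2 libraries (3790 higher, 3034 lower). Without TMM 1198 genes fell. Leaving out 1 library gave 2042 to 4305 genes (981 to 2083 higher, 1061 to 2275 lower). DESeq2 (4880), size factors by the RLE method (3621), FPKM (3502), no count filter (3069), the muscle covariate (5002) and, chosen after seeing the data, a parathyroid covariate (3009) stayed within 1.5 times. No gene called both in the 10-library fit and in an alternative changed sign. The differences in total counts (3.44 to 4.75 M) and Tg share (2.76 to 3.46 percentage points) kept their direction without any 1 library, and the difference between the aJ1aJ2 sets stayed within 11890 to 13020 genes.

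Replicate numbers did not pair the libraries (correlations of same-numbered deviations from -0.30 to 0.06, no number matching its own best), and the fit with the replicate block called 2100 genes (1036 higher, 1064 lower).

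Among the named genes called without the adipocyte covariate, the log2 fold changes reversed with it for Adgre1 (0.43), Angptl8 (0.46), Col3a1 (0.62), Cox7a1 (0.43), Cox8b (0.40), Crym (0.20), Cspg4 (1.14), Dio2 (1.29), Gldn (0.0135), Idh3a (0.0619), Junb (-0.39), Ldha (0.84), Lpl (0.80), Mrpl33 (0.00784), Ndufs1 (0.0402), Pi16 (1.51), Plaur (-1.09) and Serpina3i (-1.31). The covariate lies mostly between the groups; the cause was not tested. Over the named genes and all alternatives, 3587 values stayed called or stayed uncalled, 82 gained a call and 558 lost one without reversing. The 18 reversed values listed above lost their calls too. Uncalled genes that changed direction are counted among the 3587, such as Heyl (-0.08, and up to 0.07 without 1 library). At this depth (15.3 M counts or more) genes near 1 CPM rest on few counts per library.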

Other observations

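Genes of other tissues that a neck dissection can carry along differed in single cases. Cd1d1, which presents lipids to natural killer T cells and was on the thymocyte list, read 29.7, 28.3, 20.6, 20.8 and 22.6 CPM in aJ1aJ2 and 6.30, 6.45, 2.82, 5.26 and 4.15 CPM in aN1aN2aN3, without overlap (log2FC -2.29 ± 0.25, edgeR adjusted p = 0.000493). It was the 1 of 5 thymocyte genes tested that was called (20%, near the 19.6% over all genes), and none of the others passed in edgeR. Of 8 cartilage genes 2 fell (25% called, against 19.6% over all genes), Cnmd (-1.78 ± 0.49, edgeR adjusted p = 0.0253) and the link protein Hapln1 (-2.72 ± 0.71, edgeR adjusted p = 0.0209), both highest in aJ1aJ2 replicate 4, with calls kept in 7 and 8 of 10 fits without 1 library. Of 5 squamous epithelial keratin-type genes tested, Krt13 rose from 0–0.358 to 0.733–2.49 CPM (log2FC 3.56 ± 0.70, edgeR adjusted p = 0.00621) and Krt6a fell from 0.576–2.87 to 0.184–0.568 CPM (log2FC -2.32 ± 0.52, edgeR adjusted p = 0.0109), both at low levels. Of 11 acute phase and neutrophil genes tested 2 fell (18.2% called, near the 19.6% over all genes), the gelatinase Mmp9 (-2.25 ± 0.54, edgeR adjusted p = 0.0152) without overlap and the cytokine Il1b (-1.81 ± 0.50, edgeR adjusted p = 0.0267, kept in 4 of 10 fits). Of 11 Schwann cell genes 1 fell (9.09% called), Gldn (-2.61 ± 0.65, edgeR adjusted p = 0.0174). Of 7 airway epithelial genes and 5 red blood cell genes tested 0 were called in edgeR, with 0 and 2 at an unadjusted p under 0.05, 0 and 2 called by DESeq2 and 1 and 2 by limma-voom with quality weights.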
